A study of Mus musculus with 20 samples.

Results

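Female mouse islets that had been grafted under the kidney capsule of a pregnant host were set against islets taken directly from the pancreas of pregnant mice, both on day 12.5 of pregnancy (P12.5). The members were the 7 arrays that the labels give as female islet graft or as islets on P12.5, 3 of grafts and 4 of islets, out of 20 arrays in the series, and all 35511 probe sets were tested. All mice were C57bl6/J, and the labels give female sex for both groups. For the grafts, freshly isolated islets of female donors were placed in female hosts made diabetic with streptozotocin, a toxin taken up by beta cells whose glycaemia then recovered before mating. The non-transplanted islets were isolated with collagenase from P12.5 pregnant females, and neither streptozotocin nor a graft is named for them. Hosts and donors were adult, and no age is given in the labels. The labels mark every array of non-transplanted islets as a reanalysis, so that array batch, host diabetes, site and the recovery of the tissue all go with transplantation and cannot be told apart. Replicates are called biological in the labels, but no animal is named, so p-values measure the spread between these arrays.

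An islet is a small organ of insulin-producing beta cells, glucagon-producing alpha cells and somatostatin-producing delta cells, threaded with capillaries and nerve fibres and surrounded in the pancreas by enzyme-secreting acinar tissue. Isolation cuts its vessels and nerves, and under the kidney capsule it is revascularised from the host and lies between kidney cortex and a capsule of connective tissue and mesothelium. In pregnancy placental lactogen and prolactin act on beta cells through the prolactin receptor and STAT5. The question of the comparison was how the mRNA expression of islets on P12.5 differs once they have been transplanted.

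Levels were log2 values after robust multichip analysis, rounded to 1 decimal by the authors. The 7 arrays were alike in scale, with medians of 5.9 to 6.0 and lower quartiles of 4.7 to 4.9. Levels near or below that quartile are compressed, so the folds of genes that approach it in 1 group are not exact. A gene was called where limma gave a Benjamini-Hochberg adjusted p under 0.05 (two-sided, over all probe sets) and a fold of at least 1.5, the thresholds of the study. Pairs of graft arrays correlated at 0.978 to 0.985 over all probe sets, pairs of islet arrays at 0.986 to 0.989, and a graft with an islet array at 0.950 to 0.974. Of 35511 probe sets, 1006 were called up (2.83%) and 432 down (1.22%) in the grafts. Of the called-down probe sets, 208 had no gene symbol. Of 19938 genes, 804 were called up (4.03%) and 124 down (0.622%), and the arrays of the groups did not overlap in 917 of the 928 called genes. Over all genes, every graft array was above every islet array in 9.55% and below in 11.0%, and the median difference was -0.07. At an unadjusted p under 0.05 (limma), 2064 of the 19938 genes were higher and 2852 lower in the grafts.

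**Figure D1:**
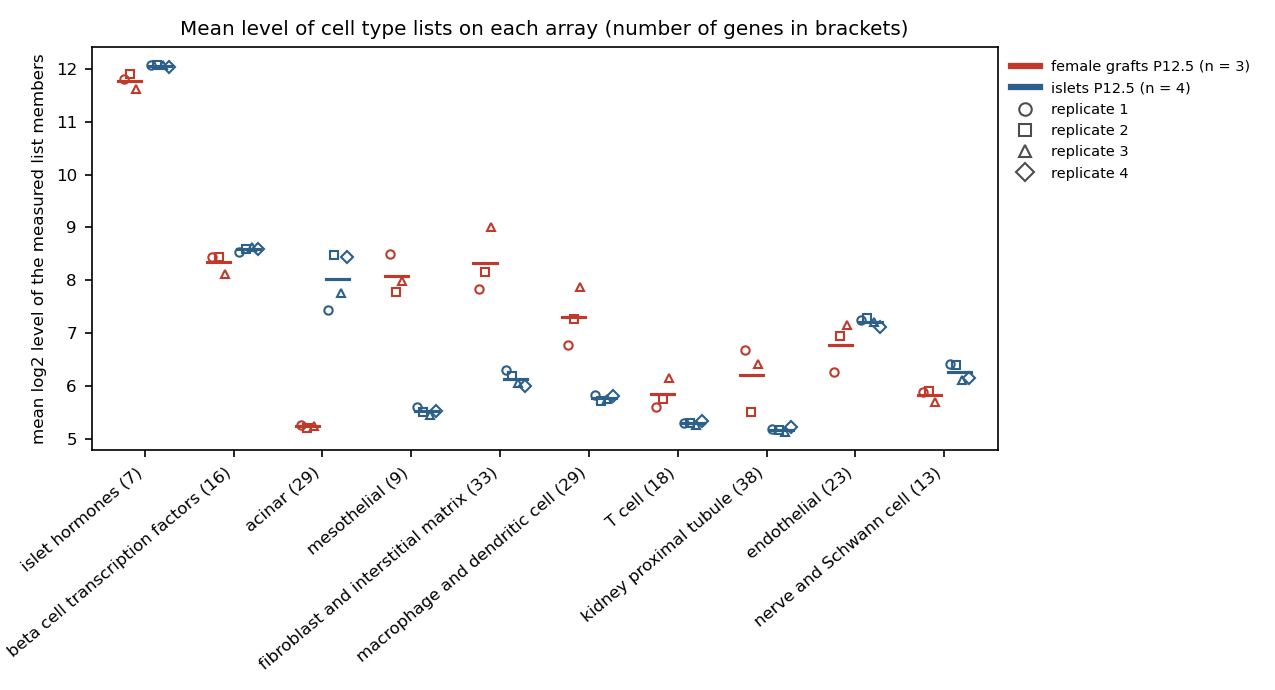
Mean log2 level of the measured members of 10 gene lists on each array (y axis, log2; number of genes in brackets), for female grafts P12.5 (red, 3 arrays) and islets P12.5 (blue, 4 arrays), with the marker giving the replicate and the bar the group mean. The acinar list lies at 5.2 to 5.26 in the grafts and 7.43 to 8.47 in the islets, while the fibroblast and mesothelial lists lie higher in every graft array.

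The islet hormone genes differed by -0.53 to -0.02 between grafts and islets. None of the 7 measured was called with limma, where 4.65% of all genes were called, and 2 were lower at an unadjusted p under 0.05. In 4 of the 7 every graft array was below every islet array, against 11.0% of all genes. Ins2, an insulin gene, had log2 levels of 10.9, 10.9 and 11.0 in the grafts, against 10.9, 11.0, 11.0 and 10.9 in the islets. Its difference was -0.02 with a 95% interval of -0.31 to 0.28. Ins1 was not analysed here.

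Differences of the other abundant hormone genes were also small. Iapp, which encodes the amyloid peptide co-secreted with insulin, had 13.7, 13.6 and 13.6 in the grafts and 13.7, 13.8, 13.8 and 13.8 in the islets. Gcg, the glucagon gene, averaged 13.53 ± 0.12 in the grafts (SD, n = 3) and 13.70 ± 0.00 in the islets (SD, n = 4). Sst, the somatostatin gene, averaged 13.17 ± 0.06 in the grafts and 13.43 ± 0.05 in the islets, and no graft array reached the lowest islet array. These levels show that both groups carried the defining mRNAs of the labelled tissue.

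The hormones of the rarer endocrine cells were lower in the grafts by more than these, without a call. Ppy, pancreatic polypeptide, had 12.6, 12.9 and 11.9 in the grafts, against 13.0, 12.9, 12.9 and 12.8 in the islets (adjusted p = 0.363, limma). Pyy, peptide YY, had 12.4, 12.6 and 12 in the grafts, against 12.8 on each islet array (adjusted p = 0.181, limma). For both genes graft replicate 3 was the lowest array of the 7. Ghrl, the ghrelin gene of epsilon cells, had 6.3, 6.5 and 6.3 in the grafts and 7.0, 6.9, 6.9 and 6.8 in the islets, a difference of -0.53 ± 0.11 (SE, adjusted p = 0.00642, limma) that did not reach the 1.5-fold minimum. Leaving out graft replicate 2 carried 1 hormone gene, Ghrl, past it.

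No gene of the 16 measured beta cell transcription factors was called with limma. All 16 differences were negative, between -0.48 for Mlxipl, which encodes the glucose-responsive factor ChREBP, and -0.07 for Pax4, and the list median was -0.23 against -0.07 over all genes. None was higher and 3 were lower at an unadjusted p under 0.05 (limma), against 2064 and 2852 of all 19938 genes. Pdx1, a master regulator of beta cell identity, had 9.8, 9.8 and 9.3 in the grafts, against 9.9, 9.9, 10 and 10 in the islets (adjusted p = 0.243, limma). Mafa, which drives insulin transcription in mature beta cells, averaged 9.0 ± 0.10 in the grafts and 9.15 ± 0.13 in the islets (SD, n = 3 and 4). Nkx6-1 averaged 9.83 ± 0.15 in the grafts and 10.05 ± 0.10 in the islets, and Foxa2 7.43 ± 0.21 in the grafts and 7.88 ± 0.05 in the islets. The differences of Isl1, Pax6, Insm1, Rfx6, Neurod1, Nkx2-2, Rfx3, Nkx6-3, Mnx1 and Hnf4a lay between those of Foxa2 and Pax4. Leaving out graft replicate 1 gave 1 call, Mlxipl, lower in the grafts.

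Of 22 measured genes of glucose sensing and insulin secretion, 1 was called up and 21 were not called, where 4.03% of all genes were called up. Only 2 differences were positive, and the list median was -0.25. At an unadjusted p under 0.05 (limma), 1 was higher and 8 were lower in the grafts. The called gene was Slc39a8, a zinc and manganese importer, with 8.3, 7.3 and 7.5 in the grafts, against 5.3, 5.5, 5.2 and 5.3 in the islets. The difference was 2.38 ± 0.34 (SE, adjusted p = 0.00034, limma), and no graft array came near an islet array. Among the others, the glucose transporter Slc2a2 had 11.7, 11.5 and 11.0 in the grafts and 11.5, 11.7, 11.7 and 11.7 in the islets, with graft replicate 3 again the lowest. Gipr, the receptor of the incretin GIP, had 8.6, 8.2 and 7.6 in the grafts and 8.6, 9.2, 8.8 and 8.9 in the islets (-0.74 ± 0.26, adjusted p = 0.0907, limma), and was called lower without graft replicate 1, at -0.98. No gene of secretory granules and prohormone processing (16 measured) or of the list of other endocrine cell genes (8 measured) was called with limma. At an unadjusted p under 0.05, 2 genes of the first list and 5 of the second were lower in the grafts and none was higher. In 4 genes of the first list and 5 of the second every graft array was below every islet array, against 11.0% of all genes.

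The islet pregnancy signature holds the genes that were most induced in non-transplanted islets on P12.5 in the study's own choice. The non-transplanted islet arrays here are marked as a reanalysis, so the list is not independent of them. Of its 12 genes, 1 was called up in the grafts, where 4.03% of all genes were called up. None was called down, 11 were not called, and 5 differences were positive. Gbp8, of the interferon-inducible guanylate-binding protein family, had 7.9, 7.8 and 7.9 in the grafts, against 6.8, 7.1, 7.1 and 7.1 in the islets. The difference was 0.84 ± 0.13 (SE, adjusted p = 0.000671, limma), with every graft array above every islet array. It fell short only of the stricter 2-fold minimum.

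**Figure D2:**
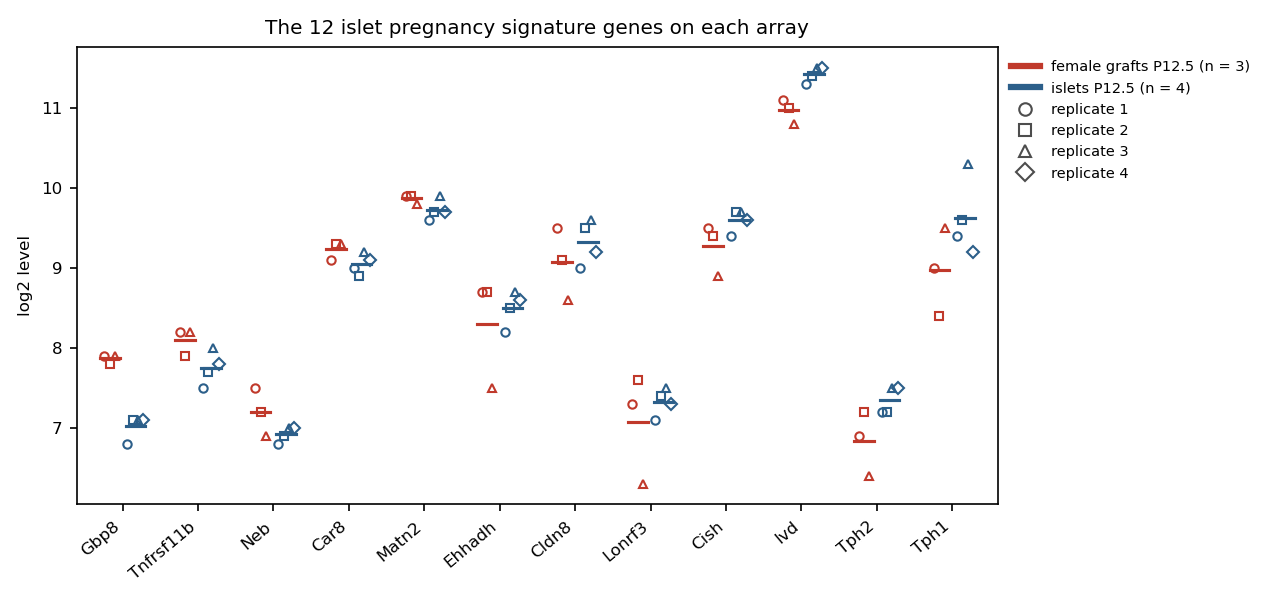
Log2 level (y axis) of the 12 islet pregnancy signature genes on each array, with female grafts P12.5 in red (3 arrays) to the left of islets P12.5 in blue (4 arrays), markers by replicate and bars at group means. Gbp8 separates the groups upwards, whereas graft replicate 3 lies at 7.5 for Ehhadh and 6.3 for Lonrf3, below all other arrays.

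Tph1 and Tph2 encode the tryptophan hydroxylases that limit serotonin synthesis. Tph1 had 9.0, 8.4 and 9.5 in the grafts, against 9.4, 9.6, 10.3 and 9.2 in the islets, a difference of -0.66 ± 0.24 (SE, adjusted p = 0.108, limma). The groups overlapped, and Tph1 was called lower only where arrays were weighted by their quality. Tph2 had 6.9, 7.2 and 6.4 in the grafts, against 7.2, 7.2, 7.5 and 7.5 in the islets (adjusted p = 0.143, limma). In male islet grafts on P12.5, set against the same 4 islet arrays, Tph1 differed by -1.46 and Tph2 by -0.98, and both were called.

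Ivd, an enzyme of leucine breakdown, was the only other signature gene with no overlap, at 11.1, 11.0 and 10.8 in the grafts and 11.3, 11.4, 11.5 and 11.5 in the islets (-0.46 ± 0.14, adjusted p = 0.0514, limma). Cldn8, a tight junction protein, had 9.5, 9.1 and 8.6 in the grafts, against 9.0, 9.5, 9.6 and 9.2 in the islets. Cish, the feedback inhibitor of STAT5 signalling, had 9.5, 9.4 and 8.9 in the grafts, against 9.4, 9.7, 9.7 and 9.6 in the islets. Both overlapped between the groups. The differences of Matn2, Car8, Neb and Tnfrsf11b were 0.14, 0.18, 0.28 and 0.35, and those of Ehhadh and Lonrf3 were -0.20 and -0.26, with none called. Among 14 measured genes of the prolactin receptor and STAT5 pathway none was called with limma, and 3 were higher and 3 lower at an unadjusted p under 0.05. Without graft replicate 1, 1 member was called up. The kinase gene Pim1, a STAT5 target, had 7.7, 8.1 and 8.1 in the grafts and 7.5, 7.6, 7.5 and 7.2 in the islets (adjusted p = 0.0199, limma, below the fold minimum). The prolactin receptor gene was not analysed here.

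The largest differences of the comparison were in the enzymes of the exocrine pancreas, which were lower in the grafts. Of 29 measured acinar genes, 22 were called down and none up, with a list median of -2.87. Among all genes 0.622% were called down and 4.03% up, shares that apply to every list that follows. In 24 acinar genes every graft array was below every islet array, against 11.0% of all genes. The mean of the list was 5.2 to 5.26 over the graft arrays and 7.43 to 8.47 over the islet arrays. The islet arrays, unlike the graft arrays, spread widely here, with replicates 2 and 4 the highest. In bulk tissue, fewer cells of a type and less RNA per cell cannot be told apart, here or in any list that follows.

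Cpb1, which encodes the protease carboxypeptidase B, had 4.2, 4.4 and 4.4 in the grafts, against 9.6, 10.9, 10.1 and 10.9 in the islets. Its difference of -6.04 ± 0.43 (SE, adjusted p = 1.38e-07, limma) was the largest of all genes, 65.9-fold lower in the grafts. Cpa1, carboxypeptidase A, had 5.6, 5.5 and 4.9 in the grafts, against 10.2, 11.5, 10.6 and 11.7 in the islets. These levels in the grafts lay near the lower quartile of the arrays. Ctrb1, chymotrypsinogen B, had 6.2, 5.9 and 5.9 in the grafts, against 10.7, 11.9, 10.9 and 11.9 in the islets (40.8-fold lower). Cel, the bile salt-stimulated lipase, was 32.2-fold lower in the grafts.

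The 15 genes with the largest decrease were Cpb1, Cpa1, Ctrb1, 2210010C04Rik, Cel, the trypsinogens Try5, Try10 and Prss2, the chymotrypsin-like Ctrl, the elastases Cela2a and Cela3b, the lipase relative Pnliprp1, the ribonuclease Rnase1, Reg1 and the zymogen granule protein Zg16. Trypsinogens and elastases are families of near-identical genes, so probe sets may share signal and the value of a single member is uncertain. Amy1, an amylase gene, had 5.0, 4.8 and 5.0 in the grafts and 6.3, 6.7, 6.3 and 6.5 in the islets. Reg1, a lectin secreted by acinar cells, was the only 1 of 7 Reg genes called, with 4.6, 4.4 and 4.6 in the grafts and 7.4, 9.0, 7.7 and 8.6 in the islets. A second Reg gene was called down without islet replicate 1 or after array medians were subtracted.

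Among the acinar genes that were not called were the transcription factor genes Ptf1a and Bhlha15. Ptf1a had 5.2, 5.3 and 5.5 in the grafts, against 5.2, 5.3, 5.0 and 5.0 in the islets (adjusted p = 0.189, limma). These levels lay near the lower quartile of the arrays in both groups, where a decrease could hardly show. Bhlha15, which encodes MIST1, had 8.4, 8.0 and 8.6 in the grafts, against 8.9, 8.9, 8.6 and 8.7 in the islets (adjusted p = 0.339, limma).

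Ductal genes did not move as a block. Of 10 measured, Krt19 and Slc4a4 were called up, Tff2, a trefoil peptide, was called down (-1.16 ± 0.22, adjusted p = 0.00382, limma), and 7 were not called. Krt19, a keratin of ducts and of mesothelium, had 8.9, 7.6 and 7.9 in the grafts, against 5.6, 5.2, 5.3 and 5.2 in the islets. Slc4a4, a bicarbonate transporter of ducts and of the proximal tubule, had 8.1, 6.8 and 8.2 in the grafts, against 6.2, 6.2, 6.1 and 6.0 in the islets, and lost its call without graft replicate 1 or 3 or any 1 islet array.

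**Figure D3:**
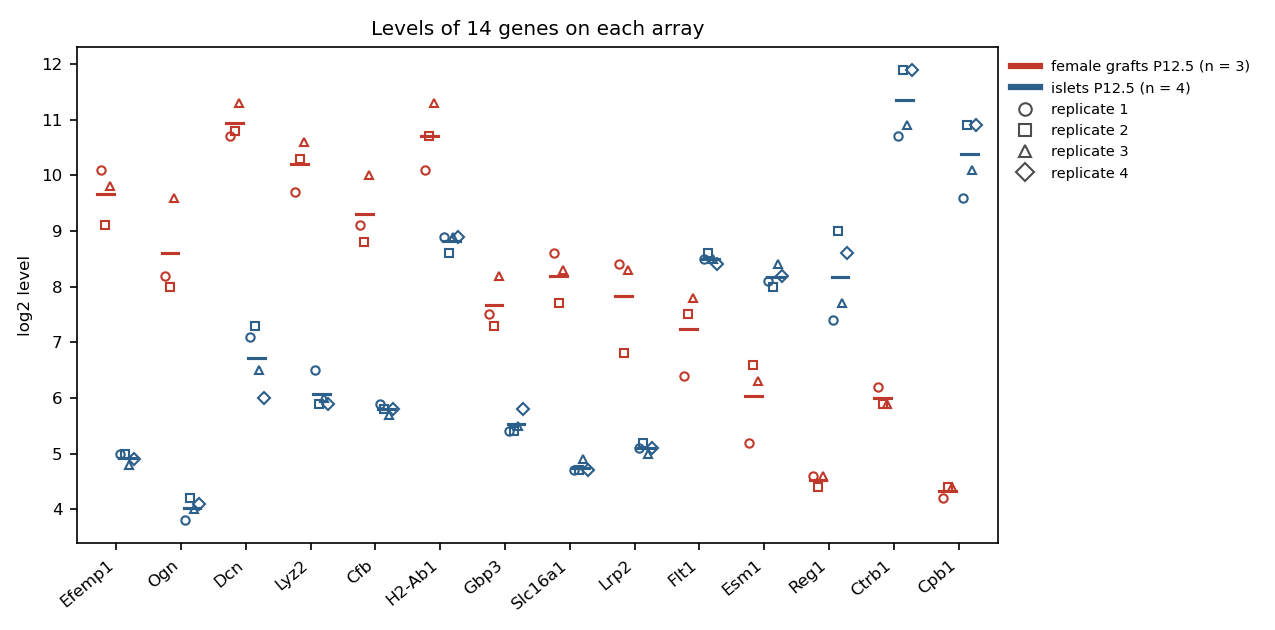
Log2 level (y axis) of 14 genes on each array, with female grafts P12.5 in red (3 arrays) to the left of islets P12.5 in blue (4 arrays), markers by replicate and bars at group means. From the stromal gene Efemp1 to the kidney gene Lrp2 every graft array lies above every islet array, and from Flt1 to the protease gene Cpb1 every graft array lies below.

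Genes of connective tissue formed the largest group that was higher in the grafts. Of 33 measured fibroblast and interstitial matrix genes, 28 were called up and none down, with a list median of 2.27, where 4.03% of all genes were called up. In 31 every graft array was above every islet array, against 9.55% of all genes. The list mean was 7.83, 8.16 and 9.01 on graft replicates 1, 2 and 3, and 5.99 to 6.30 on the islet arrays, so graft replicate 3 carried the most of this signal.

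Ogn, a small leucine-rich proteoglycan of the matrix, had 8.2, 8.0 and 9.6 in the grafts, against 3.8, 4.2, 4.0 and 4.1 in the islets (4.58 ± 0.44, adjusted p = 5.98e-06, limma). Dcn, decorin, which binds collagen fibrils, had 10.7, 10.8 and 11.3 in the grafts, against 7.1, 7.3, 6.5 and 6.0 in the islets. Fn1, fibronectin, had 8.8, 9.1 and 10 in the grafts, against 5.4, 5.3, 5.3 and 5.4 in the islets (3.95 ± 0.27, adjusted p = 9.45e-08, limma). The gap between the groups exceeded the range within either group for all 3 genes. Of the collagen I chains, Col1a1 had 10.2, 10.6 and 11.4 in the grafts, against 8.1, 7.9, 7.6 and 7.5 in the islets, and Col1a2 differed by 2.85 ± 0.34 (SE). Bgn, Lum and Mgp, a proteoglycan pair and the matrix Gla protein that inhibits calcification, were 10.74-fold, 10.08-fold and 10.02-fold higher in the grafts. Lum spread most, at 6.6, 7.6 and 9.3 over graft replicates 1, 2 and 3.

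Other genes among the 15 with the largest increase are also known from stroma or its matrix. Gpc3, a cell-surface proteoglycan, had 9.1, 9.0 and 10.3 in the grafts, against 5.1, 5.1, 5.2 and 5.1 in the islets. Aebp1, Cdh11, the fibroblast cadherin, and the collagen-binding Fmod were 12.6-fold, 11.8-fold and 11.6-fold higher. Anxa1, a phospholipid-binding protein that dampens inflammation, and Igfbp6, which binds insulin-like growth factor, were 13.8-fold and 12.7-fold higher. All 6 had adjusted p values between 9.45e-08 and 2.61e-05 (limma), with every graft array above every islet array.

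The mesothelium, the flat epithelium that lines the abdominal cavity and covers its organs, was represented by 9 measured genes. Of these 8 were called up, with a median of 2.90, and the list mean was 8.49, 7.78 and 7.98 in the grafts, against 5.44 to 5.59 in the islets. Efemp1, a fibulin, was the gene with the largest increase of all, with 10.1, 9.1 and 9.8 in the grafts and 5.0, 5.0, 4.8 and 4.9 in the islets (4.74 ± 0.44, adjusted p = 5.63e-06, limma). The uroplakin Upk1b had 9.4, 8.4 and 8.5 in the grafts, against 5.4, 5.1, 4.9 and 5.3 in the islets. Lrrn4 and Upk3b were 7.46-fold and 8.05-fold higher. Here graft replicate 1, not replicate 3, was the highest. Msln, mesothelin itself, was the 1 member not called, at 9.5, 8.9 and 9.0 in the grafts and 8.8, 9.2, 8.8 and 9.1 in the islets (adjusted p = 0.765, limma).

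Contractile and basement membrane genes moved less. Of 17 measured genes of pericytes and smooth muscle, 3 were called up and 1 down. Acta2, smooth muscle actin, had 8.2, 8.8 and 9.6 in the grafts, against 7.5, 7.3, 7.0 and 6.9 in the islets, and Tagln was 3.50-fold higher. Myl9, a myosin light chain, was 2.23-fold higher but lost its call without graft replicate 3 or any 1 islet array. Over the list 8 of the 17 differences were positive, and 7 genes were higher and 6 lower at an unadjusted p under 0.05. Pericyte genes lay on both sides. Pdgfrb, a growth factor receptor, had 7.0, 7.9 and 8.7 in the grafts, against 7.1, 7.1, 7.1 and 6.9 in the islets (adjusted p = 0.0971, limma), with a call upwards without graft replicate 1. Rgs5, a regulator of G protein signalling, had 6.8, 7.9 and 7.9 in the grafts, against 8.1, 8.1, 8.2 and 7.9 in the islets (adjusted p = 0.148, limma), with a call downwards with array weights. The member called down was the adhesion molecule Mcam, which had 6.5, 7.1 and 7.4 in the grafts and 8.0, 7.9, 7.7 and 7.6 in the islets (-0.80 ± 0.21, adjusted p = 0.0319, limma), a call lost without graft replicate 1 or 2 or islet replicate 1, 2 or 3, and 2 members were called down without graft replicate 3. Of 15 basement membrane genes all differed upwards, but only Nid1, Lama2 and Col18a1 were called, and none of the 15 was called without graft replicate 3. Without islet replicate 3 or 4, 1 was called. Of 10 adipocyte genes 1 was called, Car3, with 8.9, 6.9 and 7.4 in the grafts and 4.9, 4.6, 4.7 and 4.9 in the islets, and it lost its call without graft replicate 1 or 3 or islet replicate 2, 3 or 4.

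Macrophage genes were higher in the grafts. Of 29 measured macrophage and dendritic cell genes, 24 were called up and none down, with a median of 1.63. The list mean was 6.77, 7.27 and 7.88 on graft replicates 1, 2 and 3, against 5.71 to 5.83 in the islets. Lyz2, the lysozyme of myeloid cells, had 9.7, 10.3 and 10.6 in the grafts, against 6.5, 5.9, 6.0 and 5.9 in the islets (4.12 ± 0.24, adjusted p = 1.15e-08, limma), the smallest adjusted p of the genes named here. Mrc1, the mannose receptor of tissue macrophages, had 6.9, 7.5 and 8.9 in the grafts, against 4.8, 4.9, 4.7 and 4.7 in the islets. The order of the graft arrays was the same in both genes, with replicate 3 the highest.

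Adgre1, which encodes a surface antigen of macrophages, C1qc, a chain of the first complement component, and Mpeg1, a pore-forming protein of phagocytes, were 5.19-fold, 4.76-fold and 4.59-fold higher. Their adjusted p values lay between 2.18e-05 and 7.14e-05 (limma). Lyz1 had 6.9, 7.6 and 8.8 in the grafts, against 5.3, 5.4, 5.3 and 5.5 in the islets. It is a near-identical copy of Lyz2, so their signals may not be separate. No gene of the 15 neutrophil and mast cell genes was called with limma, and 1 was lower at an unadjusted p under 0.05.

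T cell genes were higher at lower levels. Of 18 measured, 5 were called up and none down, with a list mean of 5.61, 5.76 and 6.16 in the grafts and 5.25 to 5.33 in the islets. Cd3g, a chain of the T cell receptor complex, had 5.9, 6.5 and 6.8 in the grafts, against 4.8, 4.2, 4.4 and 5.0 in the islets (1.8 ± 0.32, adjusted p = 0.00266, limma). Il7r, the receptor of interleukin 7, and the adhesion molecule Cd2 were 2.30-fold and 2.08-fold higher, and Cd4 and Cxcr6 were 1.79-fold higher each. Without graft replicate 3 the list had 2 calls, with a filter on low values (at least 6 on at least 3 arrays) it had 1, and in the fit of the 14 female arrays it had 8. Of 11 natural killer and cytotoxic genes Nkg7 was called, with 5.9, 6.6 and 6.3 in the grafts and 5.5, 5.2, 5.3 and 5.4 in the islets, but it was not called without graft replicate 2 or with the filter, and 2 members were called without graft replicate 1 or in the fit of the 14 female arrays. No gene of 14 B and plasma cell genes was called with limma in the fit of all arrays, while 2 were higher and 1 lower at an unadjusted p under 0.05. Jchain, which joins immunoglobulin units, had 5.4, 7.2 and 7.5 in the grafts, against 4.1, 4.1, 4.0 and 4.2 in the islets (adjusted p = 0.0994, limma), and was called higher in the fit of the 7 arrays alone.

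Of 13 measured genes of antigen presentation 7 were called up in the grafts and none down, with a median of 0.80, where 4.03% of all genes were called up. In 11 every graft array was above every islet array, against 9.55% of all genes. The class II genes are expressed by macrophages, dendritic cells and B cells, and the macrophage list moved beside them as given above, a part that was not tested. H2-Ab1, a class II beta chain, had 10.1, 10.7 and 11.3 in the grafts, against 8.9, 8.6, 8.9 and 8.9 in the islets (1.88 ± 0.27, adjusted p = 0.00039, limma). Cd74, the invariant chain that guides class II molecules, had 10.2, 10.8 and 11.2 in the grafts, against 9.0, 8.7, 9.0 and 8.9 in the islets. H2-Aa, H2-Eb1 and H2-DMa were 3.54-fold, 2.62-fold and 1.89-fold higher. B2m, the light chain of class I molecules, had 11.2, 11.3 and 11.9 in the grafts, against 9.8, 9.8, 9.7 and 10 in the islets (1.64 ± 0.15, adjusted p = 4.7e-06, limma). The class I heavy chain genes H2-K1 and H2-D1 were not analysed here.

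Genes induced by interferons were also higher. Of 22 measured, 14 were called up and none down, all 22 differences were positive, and the median was 0.82. The list mean was 6.67, 6.89 and 7.51 on graft replicates 1, 2 and 3, against 5.91 to 6.18 in the islets. Without graft replicate 3, 9 members were called. Interferons act through STAT and IRF transcription factors. The IRF factors bind a repeat of GAAA spaced by a pair of bases in the promoters of such genes. The promoters of 4 called members from RefSeq, 250 bases before to 50 after the start site, are shown because they hold that repeat, searched as GAAANNGAAA on both strands, with overlapping matches allowed. Coordinates are of GRCm38.p6. Ifit1 lies at chr19:34640639-34640938 on the plus strand, Gbp3 at chr3:142559794-142560093 on the plus strand, Irgm1 at chr11:48871371-48871670 on the minus strand and Cxcl10 at chr5:92348840-92349139 on the minus strand. Capitals mark the repeat or its reverse complement.
Ifit1: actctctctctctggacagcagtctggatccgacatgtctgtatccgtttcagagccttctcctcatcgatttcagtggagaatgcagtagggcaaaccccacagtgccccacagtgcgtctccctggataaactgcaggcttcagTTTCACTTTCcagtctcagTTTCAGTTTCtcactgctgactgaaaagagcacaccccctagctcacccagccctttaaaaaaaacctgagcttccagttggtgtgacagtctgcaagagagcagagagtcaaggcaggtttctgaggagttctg
Gbp3: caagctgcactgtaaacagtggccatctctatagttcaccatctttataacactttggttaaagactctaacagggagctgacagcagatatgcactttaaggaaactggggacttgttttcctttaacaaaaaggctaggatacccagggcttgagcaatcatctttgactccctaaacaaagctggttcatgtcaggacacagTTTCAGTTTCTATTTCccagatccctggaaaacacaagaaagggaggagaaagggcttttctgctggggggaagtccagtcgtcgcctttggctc
Irgm1: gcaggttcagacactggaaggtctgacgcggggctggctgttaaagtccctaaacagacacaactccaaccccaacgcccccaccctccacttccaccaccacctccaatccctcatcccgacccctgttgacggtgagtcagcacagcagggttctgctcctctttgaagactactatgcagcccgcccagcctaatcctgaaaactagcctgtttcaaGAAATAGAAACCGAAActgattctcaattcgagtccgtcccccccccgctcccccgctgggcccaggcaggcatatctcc
Cxcl10: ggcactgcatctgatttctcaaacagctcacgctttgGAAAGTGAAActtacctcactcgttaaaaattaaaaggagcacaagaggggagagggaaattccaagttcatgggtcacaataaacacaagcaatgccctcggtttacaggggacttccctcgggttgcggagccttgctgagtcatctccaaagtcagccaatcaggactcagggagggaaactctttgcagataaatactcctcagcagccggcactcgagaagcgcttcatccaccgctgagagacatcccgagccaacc

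Of these 4, Ifit1, which encodes a protein that binds viral RNA, holds matches 104 and 85 bases before the start site. Ifit1 had 6.5, 6.8 and 7.4 in the grafts, against 5.1, 5.5, 5.1 and 5.6 in the islets (1.57 ± 0.22, adjusted p = 0.000334, limma). Gbp3, a guanylate-binding GTPase of cell-autonomous defence with overlapping matches 45 and 39 bases before the start site, had 7.5, 7.3 and 8.2 in the grafts, against 5.4, 5.4, 5.5 and 5.8 in the islets (2.14 ± 0.29, adjusted p = 0.000183, limma). Both genes separated the groups.

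Irgm1, an immunity-related GTPase with matches 30 and 24 bases before the start site, had 7.4, 7.5 and 8.0 in the grafts, against 6.4, 6.6, 6.5 and 6.5 in the islets. Cxcl10, a chemokine that attracts T cells, holds 1 match 213 bases before the start site and had 7.6, 7.4 and 7.5 in the grafts, against 5.5, 5.5, 5.1 and 6.6 in the islets. Islet replicate 4 was thus the nearest to the grafts for Cxcl10. Iigp1, Ifit3, Irf7 and Oas2, whose products are a GTPase, an RNA-binding partner of IFIT1, a transcription factor and an oligoadenylate synthetase, were 3.73-fold, 3.12-fold, 3.00-fold and 2.83-fold higher.

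The repeat was present in 13 of the 17 interferon-induced genes with a promoter window (76.5%), against 3.89% of all genes of the table with a window. Counted by window, it was present in 3.44% of all 32851. It was present in 8 of 11 members called (72.7%) and in 5 of 6 not called (83.3%). Of all genes called up, 56 of 618 with a window held it (9.06%), against 607 of 15614 genes of the table (3.89%) and 5 of 92 called down (5.43%). A match describes the letters of the window and not a bound site.

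Complement genes were among the most increased. Of 12 measured, 10 were called up, with a median of 1.92, and the list mean was 7.19, 7.25 and 8.13 in the grafts, against 5.51 to 5.63 in the islets. Cfb, factor B of the alternative pathway, had 9.1, 8.8 and 10 in the grafts, against 5.9, 5.8, 5.7 and 5.8 in the islets (3.50 ± 0.27, adjusted p = 5.45e-07, limma). C1s1, a protease of the classical pathway, had 7.7, 7.7 and 8.8 in the grafts, against 5.0, 4.6, 4.6 and 4.2 in the islets. Both were among the 15 genes with the largest increase. C2 and C4b, which form the classical convertase, were 7.55-fold and 7.25-fold higher, and the inhibitor Serping1 had 10.5, 10.6 and 11.6 in the grafts, against 8.3, 8.5, 8.3 and 8.3 in the islets. C7, of the lytic complex, was 4.02-fold higher. C3 was not analysed here.

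**Figure D4:**
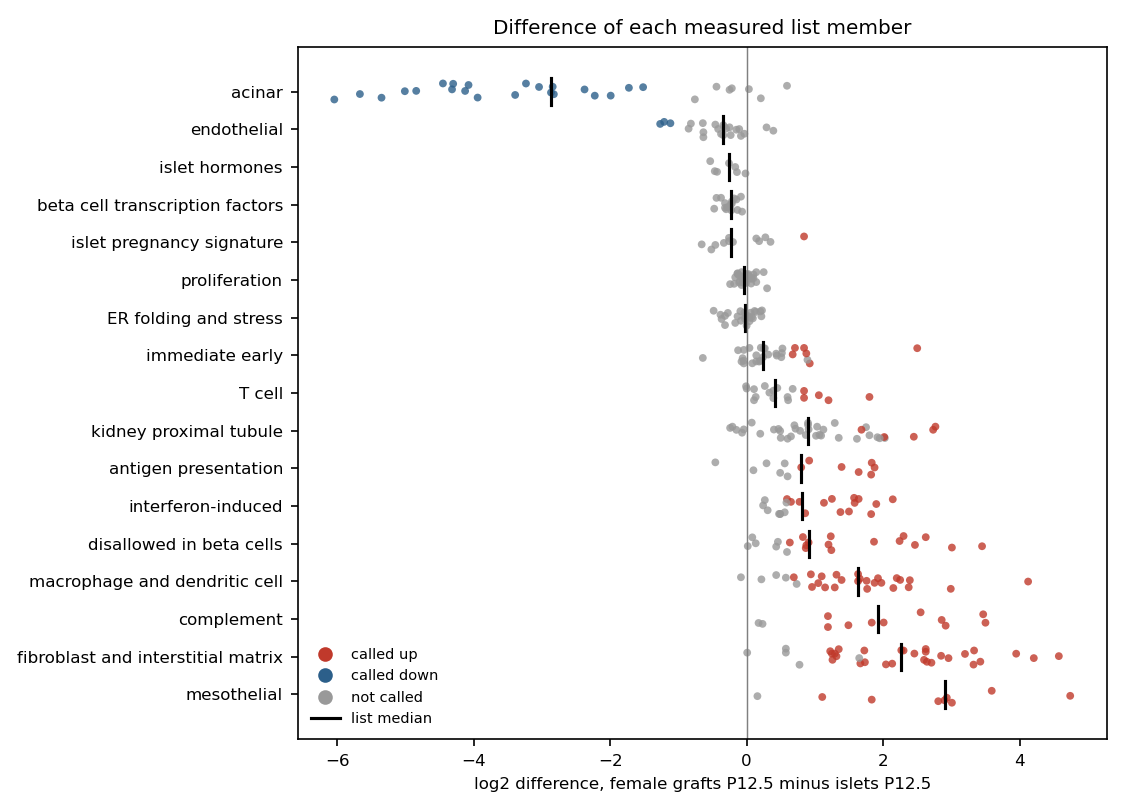
Log2 difference, female grafts P12.5 minus islets P12.5 (x axis), of each measured member of the gene lists (y axis), 1 point per gene, red where called up, blue where called down and grey where not called, with a black bar at the list median. The acinar list reaches -6.04 and the fibroblast list 4.58, while islet hormones and beta cell transcription factors lie just below 0.

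Kidney mRNAs were present in the grafts at levels that depended on the array. Of 38 measured proximal tubule genes 5 were called up and none down, with a median of 0.90, where 4.03% of all genes were called up. Positive differences were found for 33, and in 18 every graft array was above every islet array, against 9.55% of all genes. The list mean was 6.68, 5.50 and 6.42 on graft replicates 1, 2 and 3, against 5.13 to 5.21 in the islets. Slc34a1, the phosphate transporter of the proximal tubule, had 9.5, 7.0 and 9.5 in the grafts, against 6.1, 5.8, 5.8 and 5.9 in the islets (2.77 ± 0.71, adjusted p = 0.0256, limma). Lrp2, the endocytic receptor megalin, had 8.4, 6.8 and 8.3 in the grafts, against 5.1, 5.2, 5.0 and 5.1 in the islets. Replicate 2 was the graft array nearest to the islets in both genes.

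Slc27a2, a fatty acid transporter, the protease Napsa and Cyp2e1, a cytochrome P450, were the other members called, 5.46-fold, 4.05-fold and 3.21-fold higher. The count was 0 without graft replicate 3, 1 without graft replicate 1, 3 without islet replicate 1 and 1 without islet replicate 2, 3 or 4. It was 15 in the fit of the 7 arrays alone, 18 in that of the 14 female arrays and 11 with array weights. Kap, a kidney protein under androgen control, had 7.5, 5.7 and 6.3 in the grafts, against 4.5, 4.4, 4.6 and 4.4 in the islets (adjusted p = 0.221, limma). It differed by 4.86 between male grafts, whose hosts were also female, and the same islets and was called there. Of the proximal tubule list 24 genes were called in that comparison, and the cause was not tested.

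Of 25 genes of the loop, distal tubule and collecting duct, 5 were called up, and this count was 3 without graft replicate 1, 2 without graft replicate 3 and 3 without islet replicate 2, 3 or 4 or with the filter on low values. The thiazide-sensitive transporter Slc12a3 had 8.2, 6.6 and 8.7 in the grafts, against 6.2, 5.7, 5.9 and 6.1 in the islets, and uromodulin, Umod, had 7.7, 5.8 and 7.8 in the grafts, against 5.3, 5.3, 5.6 and 5.4 in the islets. Atp6v0d2, a proton pump subunit found in intercalated cells and also in osteoclasts and macrophages, did not follow this pattern of arrays, at 5.8, 6.2 and 6.3 in the grafts and 4.4, 4.3, 4.7 and 4.5 in the islets. Cldn10 and Hsd11b2 were the other members called, 2.21-fold and 1.73-fold higher. Of 6 measured glomerular and juxtaglomerular genes Wt1 and Kirrel were called up, and 1 was without graft replicate 3. Wt1, a transcription factor of podocytes and of mesothelium, had 7.4, 6.7 and 7.3 in the grafts, against 5.9, 5.6, 5.7 and 5.8 in the islets.

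Endothelial genes were lower or similar in the grafts. Of 23 measured 3 were called down and none up, where 0.622% of all genes were called down. Only 2 differences were positive, and the median was -0.34. In 10 every graft array was below every islet array, against 11.0% of all genes. With limma, 11 were lower and none higher at an unadjusted p under 0.05. The list mean was 6.26, 6.94 and 7.14 on graft replicates 1, 2 and 3, against 7.12 to 7.28 in the islets. Graft replicate 1 had the mean furthest below the islets. Flt1, a receptor of vascular endothelial growth factor, had 6.4, 7.5 and 7.8 in the grafts, against 8.5, 8.6, 8.5 and 8.4 in the islets (-1.27 ± 0.24, adjusted p = 0.00436, limma). Plvap, which forms the diaphragms of fenestrated capillaries, had 6.9, 7.9 and 8.2 in the grafts, against 8.9, 8.9, 8.9 and 8.8 in the islets. Emcn, endomucin, had 6.2, 7.8 and 8.0 in the grafts, against 8.5, 8.5, 8.5 and 8.3 in the islets (adjusted p = 0.0486, limma).

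Plvap and Emcn lost their calls without graft replicate 1, which left 1 of the list, and Emcn also lost its call without any 1 of the islet arrays. Array weights gave 8 calls. Kdr, the main signalling receptor of vascular endothelial growth factor, had 7.9, 8.2 and 8.3 in the grafts, against 8.9, 9.0, 9.0 and 8.9 in the islets, without a call in the fit of all arrays (adjusted p = 0.102, limma). Pecam1, which all endothelium carries, had 6.3, 7.6 and 7.8 in the grafts, against 7.8, 7.8, 7.6 and 7.4 in the islets. Esm1, a proteoglycan secreted by tip cells of new vessels, was the endothelial product with the clearest decrease among these, at 5.2, 6.6 and 6.3 in the grafts and 8.1, 8.0, 8.4 and 8.2 in the islets (-2.14 ± 0.26, adjusted p = 7.14e-05, limma).

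Of the 12 angiogenic ligands, the list that holds Esm1, 3 were called up. Vegfd, a growth factor for lymphatic and blood vessels that fibroblasts also make, had 7.7, 8.7 and 10.2 in the grafts, against 5.3, 5.5, 5.0 and 5.3 in the islets (3.59 ± 0.40, adjusted p = 3.11e-05, limma). Cxcl12 and Vegfc, a stromal chemokine and a lymphatic growth factor, were 1.88-fold and 1.52-fold higher. Both lost their calls without graft replicate 2 or 3 or islet replicate 3 or 4, which left 1 member called, and without graft replicate 1 a second ligand was called down. Vegfa, which islets themselves make, had 9.7, 9.4 and 9.4 in the grafts, against 9.5, 9.7, 9.7 and 9.8 in the islets (adjusted p = 0.307, limma). Of 6 lymphatic endothelial genes Pdpn alone was called (4.70-fold higher), a gene that mesothelium and fibroblasts also express.

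Genes that beta cells keep at low levels, known as disallowed genes, were higher in the grafts. Of 21 measured 15 were called up and none down, with a median of 0.91. Slc16a1, the lactate and pyruvate transporter MCT1 whose absence from beta cells keeps exercise from triggering insulin release, had 8.6, 7.7 and 8.3 in the grafts, against 4.7, 4.7, 4.9 and 4.7 in the islets (3.45 ± 0.34, adjusted p = 8.04e-06, limma). Ldha, lactate dehydrogenase A, had 8.5, 8.5 and 9.1 in the grafts, against 8.0, 7.9, 7.7 and 7.9 in the islets (0.82 ± 0.18, adjusted p = 0.00883, limma), a call lost without graft replicate 3. Igfbp4, Pdgfra and Arhgdib were 8.05-fold, 6.17-fold and 5.53-fold higher. Pdgfra is a fibroblast receptor that the fibroblast list also holds, and Arhgdib is a leukocyte protein.

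Mgst1 and Tgm2, a glutathione transferase and a transglutaminase, were 4.92-fold and 4.73-fold higher. The fibroblast list averaged 7.83 to 9.01 in the grafts and 5.99 to 6.30 in the islets, and the macrophage list 6.77 to 7.88 in the grafts and 5.71 to 5.83 in the islets. Their part in the disallowed genes was not tested. No gene of the 9 in the beta cell dedifferentiation list was called with limma, and 2 were lower at an unadjusted p under 0.05.

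Stress and growth genes differed by list. Those of proliferation and of protein folding had no call in the fit of all arrays. The other lists given here had calls, all upwards, where 4.03% of all genes were called up. None of 35 measured proliferation genes was called with limma, and 2 were higher and 1 lower at an unadjusted p under 0.05. None of 25 genes of protein folding and stress in the endoplasmic reticulum was called with limma, and 1 was higher and 4 lower at an unadjusted p under 0.05. Without islet replicate 4, 1 of them was called down. Of 30 immediate early genes, which are transcribed within minutes of a stimulus, 6 were called up. The count was 3 without graft replicate 1, 2 without graft replicate 3 and 3 without islet replicate 2. No member was called down in the fit of all arrays. Gadd45b, a stress sensor, had 7.7, 7.4 and 7.2 in the grafts, against 7.9, 8.2, 8.4 and 7.8 in the islets (-0.64 ± 0.19, adjusted p = 0.0537, limma), and was called lower without graft replicate 1, after either rescaling of the arrays, with the filter on low values, with array weights and with a replicate block.

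Ccn1, a matricellular protein that fibroblasts make, led the immediate early list with 8.9, 7.6 and 9.3 in the grafts, against 6.1 on each islet array (2.50 ± 0.32, adjusted p = 0.000123, limma). Zfp36, which destabilises cytokine mRNAs, had 7.5, 6.8 and 7.3 in the grafts, against 6.3, 6.3, 6.4 and 6.3 in the islets. Ier3, Fos, Atf3 and Egr1 were 1.90-fold, 1.79-fold, 1.63-fold and 1.60-fold higher, and graft replicate 2 was the lowest graft array for each.

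Of 24 genes of inflammation 5 were called up. The chemokine Cxcl16 had 7.0, 7.7 and 8.0 in the grafts, against 6.1, 5.9, 5.7 and 5.7 in the islets (1.72 ± 0.19, adjusted p = 2.61e-05, limma), and the protease inhibitor Timp1 and the adhesion molecule Icam1 were 2.39-fold and 1.89-fold higher. Of 14 heat shock genes the small heat shock proteins Cryab and Hspb1 were called, 2.28-fold and 2.17-fold higher, and Hspb1 was not without graft replicate 3, which left 1. Hmox1, Cat and Gpx1, which break down haem and peroxides, were called among 14 antioxidant genes. Only 8 of the 14 differences were positive, with a median of 0.02. Gpx1 lost its call without graft replicate 1 or 3 or islet replicate 4, and with a replicate block. Hmox1 had 7.1, 7.3 and 7.3 in the grafts, against 6.4, 6.2, 6.1 and 6.2 in the islets (1.01 ± 0.14, adjusted p = 0.000222, limma). Of 23 hypoxia and glycolysis genes Ldha, Pfkfb3 and Egln3 were called. The count was 1 without graft replicate 3 and 5 without graft replicate 2, and 1 member was called down without graft replicate 2 or islet replicate 4. Polr2a, the polymerase subunit with which the study normalised its PCR, had 8.8, 8.6 and 8.8 in the grafts, against 8.3, 8.4, 8.5 and 8.3 in the islets (adjusted p = 0.169, limma).

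Genes of nerve and Schwann cells leaned the other way. All 13 measured differences were negative, with a median of -0.37, and 7 were lower at an unadjusted p under 0.05. Stmn2, a microtubule regulator of neurons, had 5.3, 5.5 and 5.0 in the grafts, against 7.1, 7.2, 6.3 and 6.2 in the islets (-1.43 ± 0.40, adjusted p = 0.0379, limma). It was the only call, and it was lost without any 1 of the graft arrays or islet replicates 1 and 2, while 2 members were called without islet replicate 3. Th, which limits catecholamine synthesis, had 8.5, 8.4 and 7.5 in the grafts, against 9.0, 9.2, 8.8 and 8.9 in the islets (adjusted p = 0.102, limma).

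The same contrast in non-pregnant mice (NP), 3 female grafts against 4 islets, shares no array with that on P12.5. It called 1296 genes up (6.50%) and 434 down (2.18%). Of the 804 genes called up on P12.5, 682 were called up in NP, which is 84.8% of the P12.5 calls and 52.6% of the NP calls, and all 804 had a positive difference. Of the 124 called down, 82 were called down in NP, 66.1% of the P12.5 and 18.9% of the NP calls, and 123 had a negative difference. The differences correlated at r = 0.824 across all 19938 genes, which are not independent replicates. In both stages the array batch goes with transplantation.

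**Figure D5:**
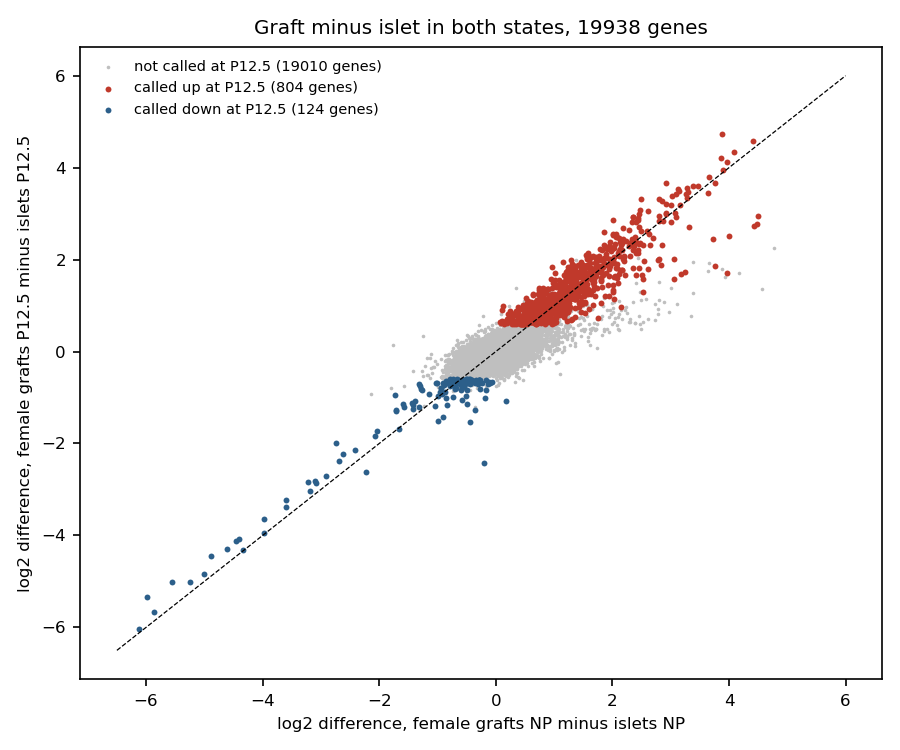
Log2 difference of each gene between female grafts and islets on P12.5 (y axis) against that in non-pregnant mice (x axis), 1 point per gene, with genes called up on P12.5 in red (804), called down in blue (124) and the others in grey, and the dashed line of equality. All 804 red points lie right of 0, and the r over all genes was 0.824.

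The lists are set side by side for the 2 stages. The median difference of the fibroblast list was 2.27 on P12.5 and 1.94 in NP, that of the mesothelial list 2.90 on P12.5 and 2.43 in NP, and that of the acinar list -2.87 on P12.5 and -3.18 in NP. The proximal tubule list stood apart, with a median of 0.90 and 5 calls on P12.5 and a median of 2.45 and 30 calls in NP. Its mean was 6.68, 5.50 and 6.42 on the P12.5 grafts and 7.81, 7.37 and 7.30 on the NP grafts. Endothelial calls numbered 3 on P12.5 and 13 in NP, all lower in the grafts. No member of either list passed the test of the difference between the stages.

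In the pregnancy signature, 1 gene was called on P12.5 and 4 in NP, all higher in the grafts. The shares of all genes called up were 4.03% on P12.5 and 6.50% in NP. Gbp8 differed by 0.84 on P12.5 and 1.53 in NP. Cldn8, Matn2 and Ehhadh, not called on P12.5 with differences of -0.26, 0.14 and -0.20, were called in NP with 1.03, 0.96 and 0.76. Nkx6-1 and Mafa, at -0.22 and -0.15 on P12.5, were called down in NP with -0.66 and -0.72. The difference between the stages was itself called for none of these genes.

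The interaction of transplantation with pregnancy was called for 18 probe sets (0.0507%), 12 higher (0.0338%) and 6 lower (0.0169%), out of 5005 at an unadjusted p under 0.05 (limma). Of genes it was called for 2 (0.0100%), Ppp1r14b upwards and Bloc1s3 downwards (0.00502% each). Ppp1r14b, a regulator of protein phosphatase 1, differed by 0.26 on P12.5 and -0.66 in NP. Bloc1s3, a subunit of a complex of lysosome-related organelles, differed by 0.05 on P12.5 and 1.09 in NP. Neither was called on P12.5.

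Grafts of male islets on P12.5 were compared with the same 4 islet arrays, so the values stand only side by side with those of the female grafts. That comparison called 1669 probe sets up (4.70%) and 909 down (2.56%), with 1155 genes up (5.79%) and 376 down (1.89%). Efemp1 differed by 4.84 in male grafts and 4.74 in female grafts, Lyz2 by 4.29 in male grafts and 4.12 in female grafts, and Cpb1 by -5.94 in male grafts and -6.04 in female grafts. For the proximal tubule list 24 genes were called in male grafts, with a median of 1.56. Pyy, Pdx1, Foxa2, Isl1 and Insm1, not called in female grafts, were called lower in male grafts. Their differences there were -0.83, -0.62, -0.64, -0.71 and -0.6. Thus 4 of the 16 measured beta cell transcription factors were called lower in male grafts, against 1.89% of all genes.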

How the data were processed

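Total RNA was hybridised to 1-colour MoGene 1.0 ST arrays, and the authors deposited log2 values made by robust multichip analysis with aroma.affymetrix, rounded to 1 decimal. No scanner files were used here, and depth does not apply to arrays, so their number limits the precision. Probe sets were named through the platform annotation, of which 21789 had 1 symbol, 1621 several and 12101 none. Where several probe sets shared a single symbol, the gene was read from that of highest average level on all 20 arrays. All 6 groups were fitted with limma 3.58.1 in R 4.3.3 (lmFit, eBayes), with 17.54 residual and prior degrees of freedom, two-sided tests and Benjamini-Hochberg adjustment over 35511 probe sets. Calls needed an adjusted p under 0.05 and a fold of at least 1.5. Steps were tested on simulated data.

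Gene lists (45, with 726 of 788 entries measured) and members were chosen with earlier results of these data known. The rule for named genes took the 15 largest called changes in each direction, up to 6 called members of each list and direction, all hormones, beta cell transcription factors and signature genes, the 4 highest members of each cell type list, Polr2a and the largest called interactions. It took 208 genes, of which the text names 163. Another 20 named genes lie outside it and were chosen after their values were seen. They are Amy1, Btnl9, Gadd45b, Gipr, Grp, Irgm1, Jchain, Kap, Nos1, Oas2, Pecam1, Pim1, Ptf1a, Slc18a3, Slc2a2, Slc5a7, Tac1, Usp17ld, Vegfa and Vip. Arrays did not pair by replicate number. Alternatives were other sets of arrays, scalings, a filter, limma with trend and robust settings, array weights, a replicate block, each array left out and a 2-fold minimum. For promoters, the RefSeq windows of GRCm38.p6 were searched.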

Additional observations from a re-analysis of the deposited data

Results flagged for a closer look

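Among the 4 islet arrays on P12.5, 1 array lay apart from the other 3 for 23 of the genes named, by Dixon's criterion. Chance flags about 1 in 20 groups, and with values rounded to 1 decimal many of these gaps are 1 rounding step. The widest were in Lyz2, at 6.5 on islet replicate 1 against 5.9 to 6.0 on the others, and in Arhgdib, at 5.2 against 5.7 to 5.8, while the grafts lay at 9.7 or more and 7.8 or more. Islet replicate 1 was also low for Gbp8, at 6.8 against 7.1, and islet replicate 2 for H2-Ab1, at 8.6 against 8.9.

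Gaps of 0.2 were seen for an array at 4.4 for Cyp2e1, 8.3 for Emcn, 9.9 for Nkx6-1, 10 for Pax6, 6.9 for Pdgfrb, 9.2 for Rfx6, 8.5 for Serping1, 4.9 for Slc16a1, 5.5 for Slc27a2 and 11.5 for Slc2a2. Gaps of 0.1 were seen at 7.8 for Foxa2, 5.2 for Gpc3, 7.8 for Gpx1, 13.7 for Iapp, 9.6 for Nkx2-2, 8.8 for Plvap, 13.5 for Sst, 5.2 for Timp1 and 6.4 for Zfp36. None of these arrays reached the graft range of a gene called above.

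For 2 genes the difference between grafts and islets differed between P12.5 and NP by the test of that difference itself (limma). Ppp1r14b changed by 0.92 from the NP to the P12.5 contrast, with 0.26 on P12.5 and -0.66 in NP. Bloc1s3 changed by -1.04, with 0.05 on P12.5 and 1.09 in NP.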

How the results depend on the processing

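The 1438 probe sets called (1006 up, 432 down) numbered 771 to 1417 when each array was left out in turn, with 534 to 1071 up and 237 to 437 down. The lowest counts, 771, 534 and 237, came without graft replicate 3, and 248 were called down without islet replicate 4. With a 2-fold minimum 716 remained above it, 608 up and 108 down. A fit of the 7 arrays alone called 666 down. Other settings stayed within 1.5 times of these counts. The share called up was 70.0%, and 61.8% to 76.3% under the alternatives other than the 2-fold minimum, for which it was higher. A replicate block gave 1099 calls (806 up, 293 down), but same-numbered arrays deviated together at r of only -0.133, -0.032 and -0.11, so the numbers do not pair the samples. With a filter on low values (at least 6 on at least 3 arrays) the NP contrast called 2268 probe sets, against 3911. The 18 interaction calls became 10 after array medians were subtracted, 32 after a renewed quantile normalization and 43 with the filter. The cause was not tested. Small differences that were not called changed sign. That of Ins2 was 0.017 with renewed quantile normalization and 0.013 with the block, and that of Ehhadh 0.0010 with array weights. Leaving out single arrays gave ranges of -0.40 to 0.20 for Ehhadh, -0.53 to 0.13 for Lonrf3, -0.025 to 0.28 for Msln, -0.70 to 0.05 for Pecam1 and -0.05 to 0.10 for Bloc1s3. In all, 495 of the 928 called genes kept their call in every fit that left out an array.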

Other observations

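Among called genes in no list (650 up, 94 down), several of the 94 are known from neurons, and were picked after their values were seen. Vip, a neuropeptide of pancreatic nerves, had 4.9, 4.8 and 4.5 in the grafts, against 7.6, 7.9, 7.0 and 6.9 in the islets (-2.62 ± 0.33, adjusted p = 9.64e-05, limma). Grp, gastrin-releasing peptide, had 5.1, 4.9 and 5.0 in the grafts, against 6.5, 6.4, 5.8 and 6.0 in the islets. Tac1, the substance P gene, had 4.2, 4.0 and 4.1 in the grafts, against 5.6, 5.8, 5.2 and 4.8 in the islets. In all 3 genes islet replicates 1 and 2 were higher than replicates 3 and 4. The acetylcholine genes Slc5a7 and Slc18a3, a choline transporter and the vesicular acetylcholine transporter, differed by -1.02 and -0.88, and Nos1, neuronal nitric oxide synthase, by -0.72. In NP, Vip, Grp, Tac1, Slc5a7, Slc18a3 and Nos1 differed by -2.23, -1.05, -1.43, -0.86, -0.96 and -0.72, and all 6 were called there.

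Btnl9, a gene of capillaries outside the endothelial list, had 6.2, 6.3 and 6.4 in the grafts, against 7.4, 7.6, 7.5 and 7.5 in the islets (-1.20 ± 0.12, adjusted p = 9.36e-06, limma). Unlike in Flt1 and Plvap, graft replicate 1 did not stand apart. Usp17ld, of a family of near-identical deubiquitinase genes and hence uncertain, had 5.5, 4.8 and 5.0 in the grafts, against 7.0, 7.9, 7.2 and 8.0 in the islets (-2.42 ± 0.53, adjusted p = 0.00962, limma), and differed by -0.20 in NP without a call.

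Of 1027 olfactory receptor genes 7 were called down (0.682%, against 0.622% of all genes) and none up. Negative differences were found for 877, with a median of -0.15, at median levels of 4.17 in the grafts and 4.38 in the islets. In NP their median was -0.27, with 46 called down (4.48%, against 2.18% of all genes). Over all 19938 genes 12404 differences were negative on P12.5 and the median was -0.07. The islet arrays are those marked as a reanalysis, and the part of batch in these small differences was not tested.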
